A study of Mus musculus with 3 samples.

Results

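The genes described here are the ligands, receptors and feedback inhibitors of fibroblast growth factor (Fgf) signalling, followed through the H2AK119ub regions of newborn mouse tongue epithelium. They were taken from a list of 33 genes, namely 22 ligand genes, 5 receptor genes and 6 feedback inhibitor genes, out of 21631 mouse protein-coding genes (autosomal and X-linked). The list was chosen with earlier results of these data known. A region was assigned to a gene when the authors' annotation gave it that gene's name, whatever its location class, or when it overlapped the gene bounds in mm10. By this rule 22 of 7838 regions in replicate 1 and 23 of 8093 regions in replicate 2 belonged to the 33 genes.

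Chromatin immunoprecipitation and sequencing (ChIP-seq) of histone H2A carrying the ubiquitin mark H2AK119ub was carried out on sorted EpCAM+ cells of the tongue of control mice at postnatal day 0. The posterior circumvallate papillae had been cut away, and the labels call the sample non gustatory epithelium and its cells basal. There were 2 H2AK119ub libraries, described as biological replicates, and 1 input library that was not analysed here. The labels give the genotype as Control and name no strain, sex or allele, and they do not say whether animals were pooled. With 1 group no treated or mutant animals were compared. Each replicate came as its own list of called regions with no read count or height, so neither depth nor signal strength is known for any of them. A region that is absent from a list may have been missed at that depth, and a mark in a few cells cannot be told apart from a weaker mark in all of them.

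H2AK119ub is the histone mark that Polycomb repressive complex 1 places, mainly over CpG-rich promoters of developmental genes that are silent or poised. Fgf ligands are secreted or intracellular proteins. The secreted ones bind receptor tyrosine kinases with heparan sulfate or Klotho proteins as cofactors and activate the Ras and Erk pathway, which in turn raises the transcription of its own inhibitors, the Sprouty and Spred proteins and the Erk phosphatase Dusp6. In the tongue and other oral organs, mesenchymal ligands such as Fgf10 signal to the Fgfr2 of the epithelium and steer its growth and patterning.

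As a check of the label, the markers of the tissue were looked up among promoter regions. Of 10 oral epithelium markers, 3 were named by a promoter region in both replicates (Krt15, Krt13 and Krt4), against 8.82% of all protein-coding genes. Krt15 and Krt13, both on chromosome 11, had regions of the same width in replicate 1 (23.52 kb), so 1 region may have named both. The count was 4 of 6 for mesenchyme, 2 of 3 for muscle, 0 of 2 for endothelium, 1 of 2 for immune cells and 2 of 2 for nerve and glia. No test was run on these short lists. Of the other 7 epithelial markers, Krt5 had a promoter region in replicate 2, Itgb4 was overlapped by a region in both replicates and Itga6 in replicate 1. Epcam, the marker of the sort, and Cdh1, Krt14 and Trp63 were overlapped by none. These lists hold no expression values, so a marker's expression in the sorted cells was not tested.

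The promoter sequences of 7 of these genes are shown first, since H2AK119ub is known to lie over CpG-rich DNA. They are the 250 bases before the transcription start, from the RefSeq table for GRCm38.p6 (mm10), and they are written 5′ to 3′ on the strand of the gene with each CG in capitals. Of the 33 genes, 25 had an entry in the RefSeq promoter table, and Fgf1, Fgf8, Fgf15, Fgf16, Fgf17, Fgf20, Fgfr1 and Spry4 had none. Shown with promoter regions in both replicates are Fgf9 (chr14:58072436-58072685, plus strand), Fgf11 (chr11:69802281-69802530, minus strand), Fgf4 (chr7:144861136-144861385, plus strand), Fgfr3 (chr5:33721474-33721723, plus strand) and Spry2 (chr14:105896820-105897069, minus strand). Shown with no region within 50 kb are Fgf14 (chr14:124192547-124192796, minus strand) and Dusp6 (chr10:99262981-99263230, plus strand). Fgf14 is 1 of several such ligands with an entry and does not stand for them. The others held 6 (Fgf7 and Fgf23) to 33 (Fgf13) CG in their most CG-rich window. The windows of Fgf9, Fgf11 and Fgf14 lie inside the bounds of their genes and not at the outer end. Each precedes the single start that the table lists for its gene.
Fgf9: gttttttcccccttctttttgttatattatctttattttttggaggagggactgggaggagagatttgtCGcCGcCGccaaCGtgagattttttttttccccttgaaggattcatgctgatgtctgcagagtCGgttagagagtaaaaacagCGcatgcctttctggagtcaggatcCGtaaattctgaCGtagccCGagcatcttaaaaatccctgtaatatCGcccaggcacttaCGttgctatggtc
Fgf11: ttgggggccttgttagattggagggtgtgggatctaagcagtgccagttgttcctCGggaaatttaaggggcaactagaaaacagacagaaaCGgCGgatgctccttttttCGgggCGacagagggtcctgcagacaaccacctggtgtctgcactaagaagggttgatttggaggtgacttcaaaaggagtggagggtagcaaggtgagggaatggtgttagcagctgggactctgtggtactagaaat
Fgf4: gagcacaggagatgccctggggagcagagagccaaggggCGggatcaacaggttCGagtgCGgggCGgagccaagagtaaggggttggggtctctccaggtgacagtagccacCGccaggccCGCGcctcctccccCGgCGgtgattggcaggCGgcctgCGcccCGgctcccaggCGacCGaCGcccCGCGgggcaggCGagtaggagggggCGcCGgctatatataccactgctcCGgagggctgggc
Fgfr3: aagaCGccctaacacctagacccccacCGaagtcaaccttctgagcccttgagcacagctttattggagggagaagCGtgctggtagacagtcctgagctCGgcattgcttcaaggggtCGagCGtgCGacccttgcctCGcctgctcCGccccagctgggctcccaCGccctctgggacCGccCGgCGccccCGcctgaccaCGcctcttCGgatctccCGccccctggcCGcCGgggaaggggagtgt
Spry2: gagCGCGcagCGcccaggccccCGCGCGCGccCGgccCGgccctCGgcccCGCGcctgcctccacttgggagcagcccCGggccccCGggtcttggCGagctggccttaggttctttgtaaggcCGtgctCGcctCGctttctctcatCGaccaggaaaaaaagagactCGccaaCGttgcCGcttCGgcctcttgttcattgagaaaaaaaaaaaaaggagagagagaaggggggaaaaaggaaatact
Fgf14: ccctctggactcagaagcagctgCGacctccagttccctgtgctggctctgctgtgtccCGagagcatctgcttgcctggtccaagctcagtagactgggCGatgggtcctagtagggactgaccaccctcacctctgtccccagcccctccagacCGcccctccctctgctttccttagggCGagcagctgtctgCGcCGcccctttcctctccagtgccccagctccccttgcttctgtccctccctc
Dusp6: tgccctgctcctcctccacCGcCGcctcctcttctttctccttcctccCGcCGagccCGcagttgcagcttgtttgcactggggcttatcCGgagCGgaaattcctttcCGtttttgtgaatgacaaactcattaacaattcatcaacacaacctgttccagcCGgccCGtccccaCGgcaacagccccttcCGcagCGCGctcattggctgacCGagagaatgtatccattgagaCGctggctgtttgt
The stretch of Fgf11 holds 5 CG dinucleotides and that of Spry2 holds 23, although both genes carried a promoter region in each replicate. The stretch of Dusp6, which had no region, holds 16, more than the 11 of Fgf9.

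Promoter regions named 10 of the 33 genes in both replicates (30.3%, exact 95% binomial interval 15.6 to 48.7%), while 8.82% of all protein-coding genes were so named. They were the ligands Fgf4, Fgf8, Fgf9, Fgf11, Fgf15 and Fgf18, the receptors Fgfr3 and Fgfr4 and the inhibitors Spry2 and Spry4. By role, these were 6 of 22 ligands (27.3%, 10.7 to 50.2%), 2 of 5 receptors (40%, 5.27 to 85.3%) and 2 of 6 feedback inhibitors (33.3%, 4.33 to 77.7%). The intervals of the 3 roles overlap widely, so no order among them can be read at these numbers. Replicate 1 alone named 12 of the 33 genes, against 12.8% of all protein-coding genes, and replicate 2 alone named 13, against 12.4%. Regions of any location class named 14 genes in both replicates, against 15.3% of all genes, and 13 genes were overlapped by a region in both, against 13.3%. With a transcription start inside a region of both replicates as the criterion, 7 of the 25 genes with an annotated start qualified, against 5.57% of all such genes. No test was run, since 1 group of 2 libraries allows none. The intervals cover counting error only, and the 33 genes are not a random draw, as the list was chosen with earlier results of these data known.

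**Figure D1:**
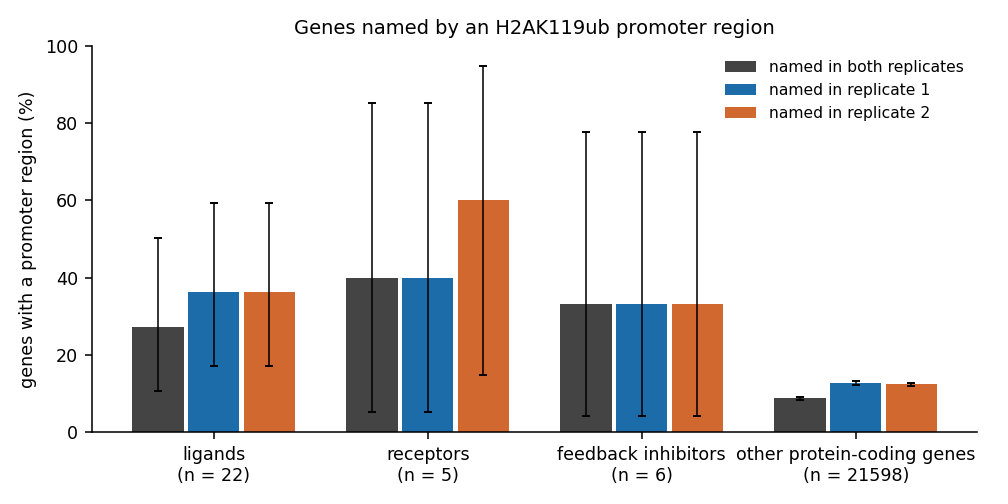
Percent of genes named by an H2AK119ub promoter region, by role in Fgf signalling and over all other protein-coding genes, for both replicates together and for each alone. Error bars are exact 95% binomial intervals; ligands stand at 27.3%, receptors at 40% and feedback inhibitors at 33.3% for both replicates, against 8.79% of 21598 other genes.

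The remaining 23 genes fell into 3 sets. A promoter region in 1 replicate named Fgf3, Fgf12, Fgf17, Fgf21 and Fgfr1. Regions of other classes, with no promoter region of their own name, were found for Fgf1, Fgfr2, Spred1 and Spred2. No region named or overlapped the other 14 genes in either list, namely 11 ligands (Fgf2, Fgf5, Fgf6, Fgf7, Fgf10, Fgf13, Fgf14, Fgf16, Fgf20, Fgf22 and Fgf23), the receptor gene Fgfrl1 and the inhibitors Spry1 and Dusp6. Thus 19 of the 33 genes were named in at least 1 list, against 26.6% of all protein-coding genes.

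Among the ligands, the Fgf8 subfamily, whose members are signals of embryonic organizing centres and of skeletal growth, had 2 of 3 genes named by a promoter region in both replicates (66.7%, exact 95% interval 9.43 to 99.2%), against 8.82% of all protein-coding genes. All 3 were overlapped by a region in both, against 13.3%. The other ligand subfamilies stood at 0 to 33.3% by the promoter rule, so this was the highest of several shares of few genes. No enrichment of the subfamily is read from it. Fgf8 on chromosome 19 (45736491 to 45742941) lay wholly inside a region of 18.9 kb in replicate 1 (45730021 to 45748937) and one of 20.5 kb in replicate 2 (45727794 to 45748269). The stretch common to both was 18.2 kb, and both regions also carried the names Npm3 and 4933429K18Rik. Fgf18 on chromosome 11 had regions of 5.22 kb (33143093 to 33148315) and 11.1 kb (33138410 to 33149489), of which the narrower lay wholly within the wider. They covered the start of the gene and the stretch after it, 14.2% and 29.5% of the gene. Fgf17 on chromosome 14 (70636203 to 70642268) was wholly inside a 15.0 kb region in replicate 1 that named it together with the erythrocyte skeleton gene Dmtn. In replicate 2 a region of 2.38 kb covered 31.9% of Fgf17 but was named for Dmtn alone, so Fgf17 had cover in both lists and its own name in 1.

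Of the 3 genes of the Fgf9 subfamily, 1 was marked. Fgf9, a ligand of epithelia and mesenchyme in several organs, had regions of 14.1 and 14.2 kb on chromosome 14 (58068281 to 58082412 in replicate 1 and 58066746 to 58080956 in replicate 2). The edges of these regions lay 1.53 and 1.46 kb apart, and 12.7 kb was common to them. They covered 27.8% and 24.4% of the 42.2 kb gene, at the end that holds its start. Its relatives Fgf16 on X and Fgf20 on chromosome 8 had no region, and the nearest to Fgf20 lay 3660 kb away in both lists.

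Of the Fgf4 subfamily, Fgf4 alone was marked. Fgf4, a ligand of the early embryo and the limb bud, is 3.86 kb long and lay wholly inside regions of 10.9 kb (144858088 to 144869012 on chromosome 7) in replicate 1 and 12.2 kb (144857407 to 144869584) in replicate 2. Fgf5, the ligand that ends hair growth, had no region, the nearest lying 9.68 kb away in replicate 1 and 50.3 kb in replicate 2. Fgf6, a ligand of skeletal muscle, had none within 129 and 130 kb.

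The Fgf7 subfamily includes the mesenchymal ligands of epithelial Fgfr2, and 0 of its 4 genes had a promoter region in both replicates (0%, exact 95% interval 0 to 60.2%), an interval that holds the 8.82% of all protein-coding genes. For Fgf10 the nearest region lay 613 kb away in replicate 1 and 615 kb in replicate 2, both named for Nnt. For Fgf7, also known as keratinocyte growth factor, these distances were 311 and 234 kb, and for Fgf22 they were 23.5 and 11.2 kb. Fgf3, a ligand of ear and tooth development, differed between the lists. In replicate 2 a region of 14.1 kb (144834333 to 144848392 on chromosome 7) covered it wholly, while in replicate 1 the nearest region, of 1.73 kb and named for Fgf4, began 1.78 kb beyond it.

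Fgf3, Fgf4 and Fgf15 stand in a row on chromosome 7 over 62.3 kb. Regions covered 41.8% of this span in replicate 1 and 46.1% in replicate 2, in separate blocks with free stretches between. In replicate 1 the blocks lay over Fgf4, over Fgf15 and between Fgf3 and Fgf4, and in replicate 2 over each of the 3 genes, with part of the span bare in both. Fgf15, the intestinal hormone that restrains bile acid synthesis, lay in a 23.6 kb region in replicate 1 (144887567 to 144911126), which covered it wholly, and in a 6.75 kb region in replicate 2 (144892262 to 144899016), which covered 56.2% of it. The wide region of replicate 1 met 2 regions of replicate 2, that of Fgf15 and a distal one named for Oraov1. Farther along, Ccnd1, the gene of cyclin D1, also had a promoter region in both lists, at 102.5 to 114.6 kb and 101.6 to 106.7 kb from the first base of Fgf3. With genes of the list within 100 kb of each other counted as 1, 9 of 30 loci were marked (30%). All protein-coding genes were not grouped in this way, so this share has no background to be set against.

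**Figure D2:**
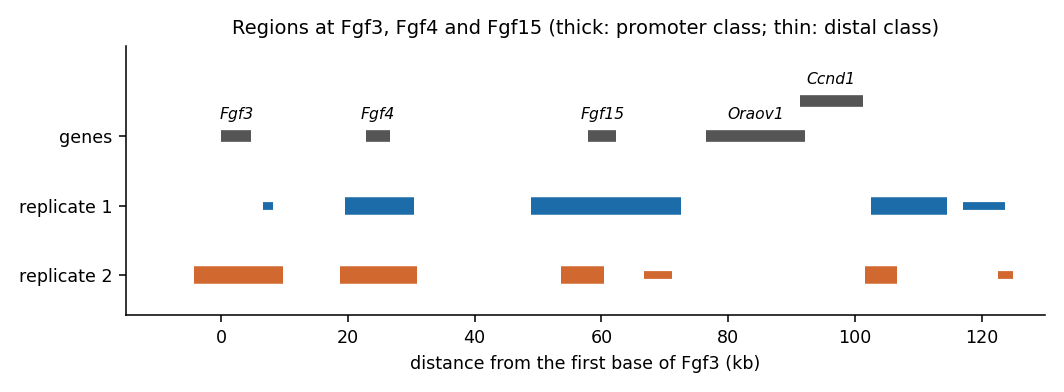
Map of the Fgf3, Fgf4 and Fgf15 locus with the regions of each replicate, as distance in kb from the first base of Fgf3; thick bars are promoter-class and thin bars distal-class regions. Fgf4 and Fgf15 lie under a promoter region in both replicates and Fgf3 in replicate 2 alone.

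Among the other hormone-type ligands, neither had a promoter region in both lists. Fgf21, the fasting hormone of the liver, was named at the promoter in replicate 2 alone, by a region of 6.45 kb and shared with Fut1 and Izumo1, that covered 79.2% of the gene. In replicate 1 the nearest region lay 11.7 kb away. Fgf23, the phosphate hormone of bone, had none within 71.8 kb in replicate 1 or 71.9 kb in replicate 2.

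The intracellular type, Fgf11 to Fgf14, encodes proteins that are not secreted and that bind voltage-gated sodium channels. Fgf11 lay wholly inside regions of 11.5 kb (69795632 to 69807175 on chromosome 11) and 11.9 kb (69795772 to 69807710). Among the promoter regions of the genes named in both replicates, this pair had the closest match, 94.4% of their joint length. Both regions also named G630025P09Rik, Chrnb1 and Tmem102. Fgf12, Fgf13 and Fgf14 are long genes of 595, 523 and 703 kb. Of the 4 annotated starts of Fgf12, 1 lay in a region of 10.04 kb in replicate 1, and in replicate 2 the nearest region was 905 kb away. For Fgf13 on X the nearest region lay 1020 kb away in each replicate, and Fgf14 had none within 1470 kb in replicate 1 and 1480 kb in replicate 2. Of the Fgf1 type, Fgf2 had no region within 274 and 871 kb. Fgf1, on chromosome 18, had gene body regions of 4.54 and 3.36 kb that met in the 2 replicates. A second stretch carried a promoter region named for Gm5820 in replicate 1 (6.60 kb) and a gene body region named for Fgf1 in replicate 2 (3.88 kb), and replicate 2 had a further one of 9.004 kb.

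The receptors divided by type of region. Fgfr3, the receptor that restrains bone growth, had the widest regions of any receptor gene, 22.6 kb in replicate 1 (33713142 to 33735727 on chromosome 5) and 13.1 kb in replicate 2 (33717632 to 33730729). These covered 91.3% and 58.7% of the gene and both of its annotated starts, and replicate 1 had another region of 20.5 kb, of the distal class, 18.6 kb away. Fgfr4, the receptor for Fgf15 in the liver, had regions of 5.04 kb (55150636 to 55155672 on chromosome 13) and 7.53 kb (55149724 to 55157249) over its start. They covered 17.9% and 27.8% of it. Both regions of Fgfr3 were above the median width of promoter regions in their list, while the region of Fgfr4 was above it in replicate 2 alone.

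Fgfr1 and Fgfr2, the receptors of broadest expression, carried narrow regions. Fgfr1 on chromosome 8 was named by a 2.21 kb promoter region of replicate 2 (25516660 to 25518872), of which 0.114 kb lay in the gene. In replicate 1 it had gene body regions of 2.50 and 0.843 kb and a distal one of 2.295 kb. Replicate 2 listed a further distal one of 1.09 kb. None of the 5 regions named for Fgfr1 met a region of the other replicate. Fgfr2, the receptor for Fgf7 and Fgf10, had no region over its 104 kb. Its single region was distal, 23.1 kb away in both lists, 2.14 kb wide in replicate 1 (130289914 to 130292054 on chromosome 7) and 2.21 kb in replicate 2 (130289896 to 130292101). The region of replicate 1 lay wholly within that of replicate 2. Fgfrl1, a receptor-like protein without a kinase domain, had no region, with the nearest 321 kb away in replicate 1 and 9.2 kb in replicate 2.

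Among the feedback inhibitors, the Sprouty genes differed from each other. Spry4 on chromosome 18 (38586247 to 38601347) had promoter regions of 11.3 kb (38589855 to 38601167) and 6.69 kb (38594424 to 38601112). Both lay inside the gene bounds, their upper edges 0.055 kb apart, and covered 74.9% and 44.3% of the gene. Replicate 2 also listed a distal region for it, 1.12 kb wide and 48.8 kb away. Spry2 on chromosome 14 (105891947 to 105896819) had the narrowest promoter region of the set in replicate 1, at 0.927 kb (105895948 to 105896875), and one of 3.86 kb in replicate 2 (105893080 to 105896936). The upper edges at Spry2 were also close together, 0.061 kb apart. Spry2 has an annotated start at that end, while Spry4 has no start in the promoter table. The regions of Spry2 reached 0.056 and 0.117 kb upstream of the start, as against 0.871 and 3.74 kb downstream. Only 0.777% of the promoter regions of replicate 1 were narrower than that of Spry2, and 25.6% of those of replicate 2.

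Spry1, whose product is of the same family, had no region in either list, with the nearest 39.6 kb away in replicate 1 and 637 kb in replicate 2. Dusp6, the phosphatase that inactivates Erk, had none within 53.9 and 52.3 kb. Spred1 had a distal region of 3.14 kb in replicate 2, 10.3 kb from the gene. Spred2 had distal regions in both lists that met each other, of 5.04 and 2.87 kb and 41.0 and 43.6 kb from the gene, a further distal one of 1.83 kb in replicate 1 alone and a gene body region of 2.78 kb in replicate 2 alone.

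**Figure D3:**
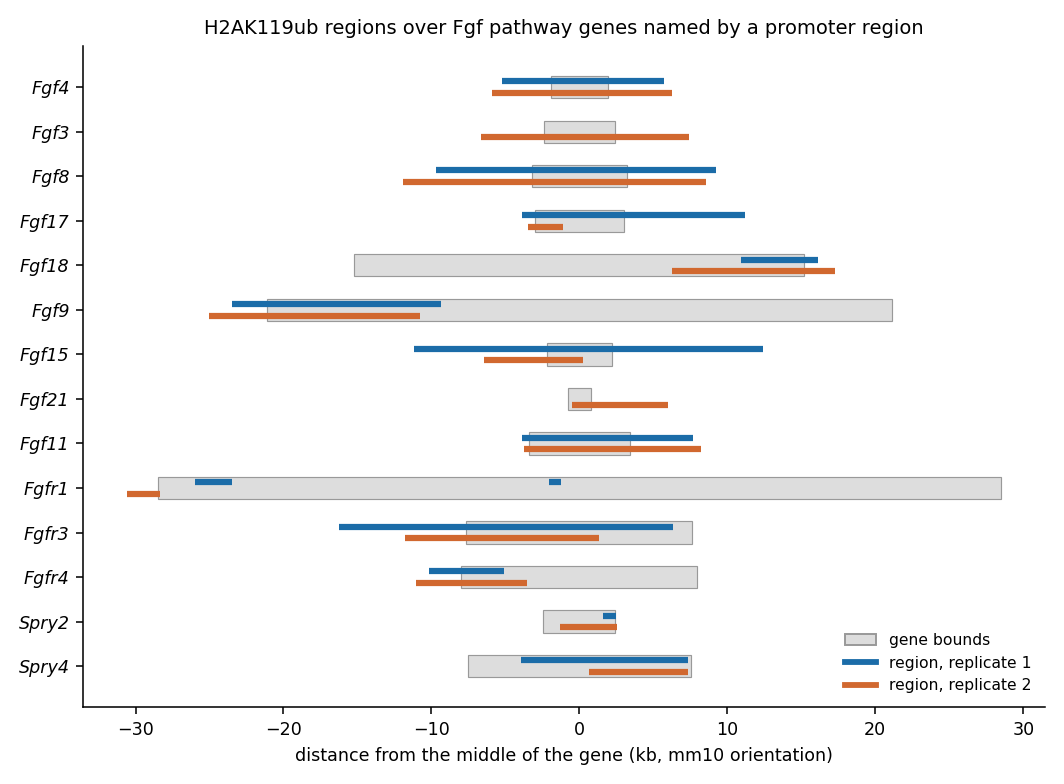
Regions of each replicate (coloured lines) over the gene bounds (grey boxes) of the 14 genes under 100 kb long that a promoter region named, as distance in kb from the middle of the gene. Fgf4, Fgf8 and Fgf11 lie wholly under regions of both replicates, whereas the regions of Spry2 and Spry4 end close to 1 end of the gene.

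Promoter regions that named these genes were wider than the typical promoter region of their list. Their median width was 11.4 kb over 12 regions in replicate 1 and 11.1 kb over 13 regions in replicate 2, against 8.08 and 6.84 kb over all promoter regions. Of these, 9 of 12 and 8 of 13 were wider than the median of all promoter regions. The 2 medians averaged 11.3 ± 0.246 kb (SD, n = 2). The narrowest and widest were 0.927 and 23.6 kb in replicate 1, and 2.21 and 20.5 kb in replicate 2, while the widest promoter regions of the lists reached 191.7 and 179.5 kb. Other genes were named in 3 of the 12 and 3 of the 13 regions, 25% and 23.1%, against 18.5% and 18% of all promoter regions.

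**Figure D4:**
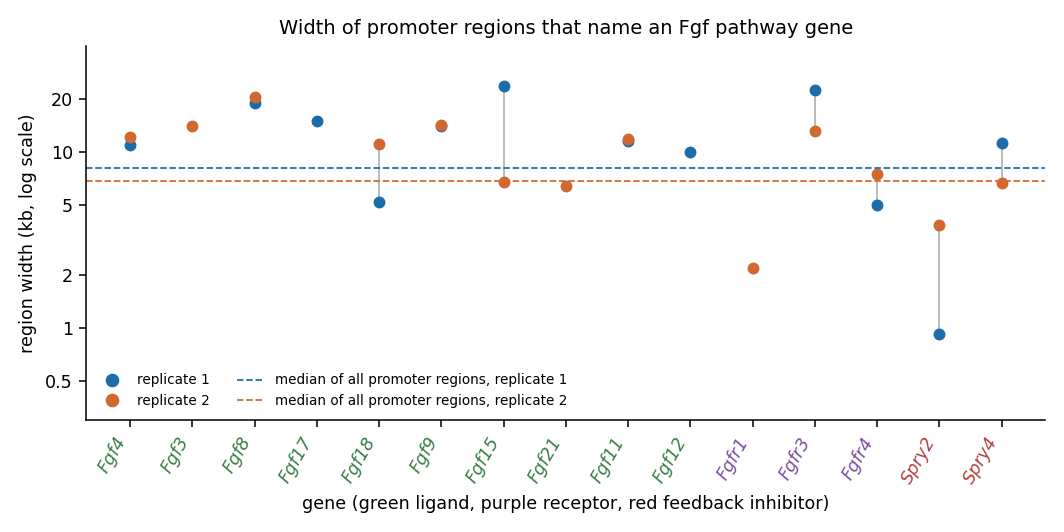
Width in kb, on a log scale, of each promoter region that named an Fgf pathway gene, with replicates 1 and 2 as coloured points joined by a line and the median of all promoter regions of each list dashed. Fgf8, Fgf9 and Fgf11 have nearly equal widths in both replicates, while Fgf15 and Spry2 differ 3.49-fold and 4.16-fold.

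The width of a region agreed between replicates at some genes and not at others. For the 10 genes named in both, the wider region exceeded the narrower by 1.01-fold for Fgf9, 1.03-fold for Fgf11, 1.08-fold for Fgf8 and 1.11-fold for Fgf4. It exceeded it by 1.49-fold for Fgfr4, 1.69-fold for Spry4, 1.72-fold for Fgfr3, 2.12-fold for Fgf18, 3.49-fold for Fgf15 and 4.16-fold for Spry2. Replicate 1 had the wider region at Fgf15, Fgfr3 and Spry4, and replicate 2 at the other 7. Of all regions of the 33 genes, 72.7% in replicate 1 (16 of 22) and 69.6% in replicate 2 (16 of 23) met a region of the other replicate, against 61.1% and 61.2% of all regions. The promoter class made up 59.1% and 60.9% of these regions, against 34.5% and 32.4% of all regions. Intergenic regions carry no gene name, so these class shares are not independent of how regions were assigned to genes.

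Where a start was annotated, most regions held more bases downstream of it than upstream, counted to the edge of the region even where that lay past the gene. In replicate 1, 8 of 9 starts inside a promoter region of their own gene had more of the region after them than before, against 59.6% over all protein-coding genes. In replicate 2 this held for 9 of 10, against 58.9%. Both starts of Fgfr3 lie in the same region and were counted separately. The exceptions were Fgf12 in replicate 1 (5.75 kb before and 4.29 kb after) and Fgf21 in replicate 2 (5.18 and 1.27 kb). The region of Fgf9, for example, ran 4.41 kb before and 9.73 kb after the start in replicate 1, and 5.94 and 8.27 kb in replicate 2.

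Coverage of the gene bounds gave a measure that does not depend on the names in the lists. As the mean of both replicates, 8 of the 33 genes (24.2%) were covered over at least 50% of their length, against 5.09% of all protein-coding genes, and 16 (48.5%) were not covered at all, against 77.1%. Mean coverage was 27.2% for ligands, 20.2% for receptors and 18.1% for feedback inhibitors, against 6.33% over all protein-coding genes. The medians were 0.422% for ligands, 3.04% for receptors and 0.698% for feedback inhibitors, against 0% over all protein-coding genes, so the order of the roles differs between mean and median. The genes named in both replicates were 3.86 to 42.2 kb long (median 11.0 kb), and those with no region 2.75 to 703 kb (median 12.4 kb), against a median of 17.3 kb for all protein-coding genes.

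The CpG content before the start separated these genes only in part. The motif searched was CG, which reads the same on both strands, and 93.6% of the 21045 windows of all protein-coding genes hold at least 1. Where a gene had several starts, the window with most CG was taken. The 7 genes with an entry and a promoter region in both replicates held 5 to 37 CG, with a median of 21. The 12 with an entry and no region held 6 to 33, with a median of 15.5. The 15 with an entry and no promoter region, these 12 included, held 2 to 33, with a median of 15. Over all protein-coding genes the medians were 17 for those named in both replicates and 10 for those with no promoter region. At least 10 CG were found in 6 of the 7 genes and 7 of the 12 genes. Fgf18 had the most, at 37, and Fgf11 the fewest of the marked genes, at 5. For Fgf9, Fgf11 and Fgf14 the only window in the table lies inside the gene bounds. CG at the outer end of these genes was therefore not counted. Fgf13 (33), Fgfrl1 (30), Spred1 (31), Fgf5 (24), Spry1 (23) and Fgf2 (20) held as many as marked genes do and had no promoter region, and Spry1 equalled Spry2 at 23. Of the 11 genes of the list with 20 or more CG, 4 were named in both replicates, against 12.6% of all genes in that range. The ligands Fgf7 (6) and Fgf10 (8) lay below the median of genes with no promoter region.

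**Figure D5:**
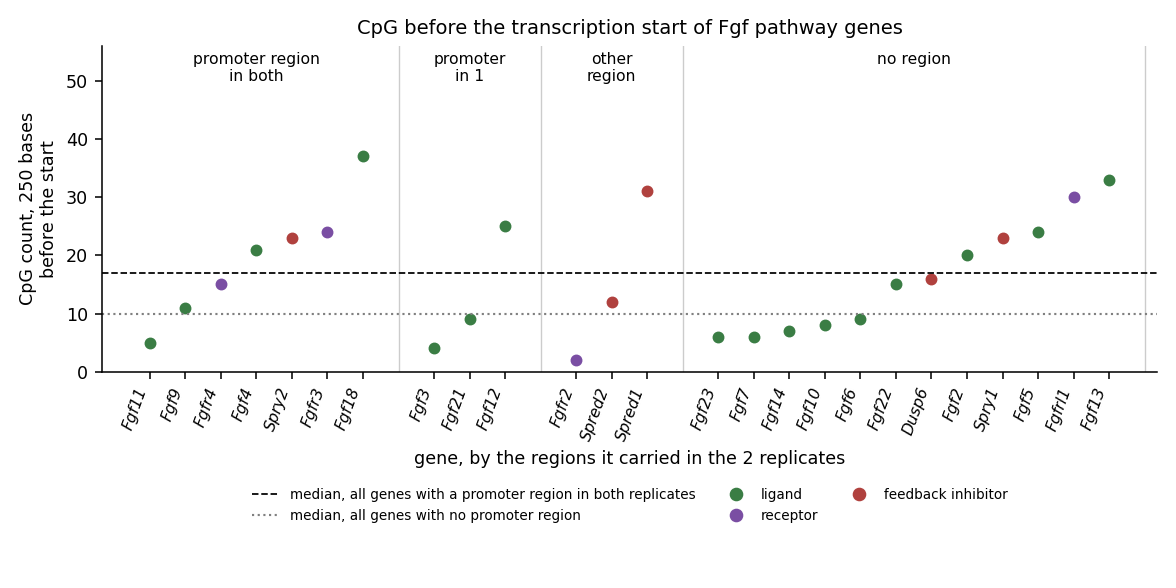
Number of CG dinucleotides in the 250 bases before the start of 25 Fgf pathway genes, in the most CG-rich window of each, grouped by the regions the gene carried and coloured by role. Marked genes range from 5 (Fgf11) to 37 (Fgf18) and genes without a region from 6 (Fgf7 and Fgf23) to 33 (Fgf13). Lines give medians over all protein-coding genes, 17 for those with a promoter region in both replicates and 10 for those with no promoter region. The only windows of Fgf9, Fgf11 and Fgf14 lie inside the gene bounds and not at the outer end.

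Other genes of the pathway came from 3 lists of 51 genes in all, of which 6 (11.8%) were named by a promoter region in both replicates, near the 8.82% of all protein-coding genes. Of 18 co-receptors and extracellular modulators, 3 were named. They were Flrt1, a membrane partner of Fgf receptors (31.0 and 74.9 kb), Sulf2, a heparan sulfate editing enzyme (55.5 and 35.8 kb), and the glypican gene Gpc3 (2.67 and 2.94 kb). The Klotho genes Kl and Klb, the cofactors of hormone-type ligands, had no promoter region. Of 19 adaptors and kinases, 2 were named, the docking protein gene Frs3 (5.16 and 8.26 kb) and Plcg1 (2.54 and 3.59 kb). Frs2, Grb2, Sos1, Ptpn11 and the Ras, Raf, Mek and Erk genes had none. Of 14 transcription factors and other inhibitors, 1 was named in both replicates, the phosphatase gene Dusp4 (10.9 and 9.04 kb), and 7 in 1 replicate. Among those 7 were the Fgf target gene Etv4 (5.01 kb in replicate 1), the inhibitor gene Il17rd (7.597 kb in replicate 2) and the phosphatase genes Dusp5, Dusp7 and Dusp9. The regions named for Etv4 and Dusp7 did not overlap the gene. Replicate 1 named 6 of the 14 genes and replicate 2 named 3, against 12.8% and 12.4% of all protein-coding genes.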

How the data were processed

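The analysis used the 2 region lists of the H2AK119ub replicates. Per the file headers, each deposited row holds a chromosome, a first and a last coordinate (mm10), 1 of 4 location classes and the gene names the authors assigned. The submitters' processing notes list SAMtools 0.1.19 and Bowtie2 2.3.3 without saying for what. Not given in the sources used here are the peak caller, any use of the input, the distances behind each class and the coordinate base. Coordinates are therefore printed as listed, and width is last minus first. No gap between regions was under 999 bp, so nearby stretches may stand merged. Depth is unknown and no score exists to rank regions.

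Gene bounds and biotypes came from RefSeq (GRCm38.p6), starts and sequences from its promoter table. Names were matched by symbol, then by a synonym held by 1 gene. This left 16 of 7300 names unmatched in replicate 1 and 13 of 7457 in replicate 2. Overlap counted from 1 bp. "Marked" means that both replicates list a promoter region with the name of the gene. Shares carry exact (Clopper-Pearson) 95% intervals, for counting error only. Every gene of the list is reported; full values are given for those with a promoter region. Sequences were shown for the marked genes of each role with the widest regions and an entry in the table, and for genes of that role with no region within 50 kb. Not every ligand of the latter kind was shown. The members and lists were chosen with earlier results of these data known. Functions were tested on simulated data. Alternatives comprised other ties of gene to region, wide regions only, either or a single replicate, and a stricter overlap. Computation used Python 3.11.15 with pandas 2.3.3, scipy 1.17.1 and numpy 2.4.6, and figures were drawn with matplotlib 3.10.9.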

Additional observations from a re-analysis of the deposited data

How the results depend on the processing

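Alternatives gave 55 values for 10 results, of which 49 stayed within 1.5 times of a count or within the SD between replicates. For width and coverage, the value of a single list always lies within that SD of the mean, so leaving a replicate out could not count as a move. Receptor coverage of 0% in place of 3.04% also lay within it, since the lists gave 5.87 and 0.2%. The 10 marked genes became 7 to 15, the 7 out of the 25 with an annotated start and the 15 out of 33. Counted in either replicate, 10 ligands were marked in place of 6. With names of any location class, 4 receptors were marked in place of 2. Under these settings 16.4% and 15.2% of other protein-coding genes were marked, in that order, against 8.79% by the main rule. The share was 6.27% with wide regions only. With regions above the median width of their list, 1 feedback inhibitor was marked in place of 2, since Spry2 has narrow regions. With a start of the RefSeq promoter table inside a region, a setting chosen after seeing the data, it was also 1, as Spry4 has no entry there. With a reciprocal overlap of 50% required, 44.5% of the regions of these genes counted as shared in place of 71.2% (mean of both lists). Sharing over the complete lists also fell under this stricter rule, from 61.1% to 35.4% for replicate 1 and from 61.2% to 34.3% for replicate 2. Promoter regions of the Fgf genes that named no other gene had a median width of 10113 bp in place of 11253 bp. The median coverage of each list, averaged over the lists, was 0% for the 33 genes and for ligands under each setting, and ranged over 0 to 5.87% for receptors and 0 to 1.4% for inhibitors. The share of shared regions needs both lists and has no value with a replicate left out. No paired analysis was possible because the 2 replicates form 1 group. Small counts of 5 receptors and 6 inhibitors, and unknown depth, limit what can be read from the roles.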

Other observations

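Some genes of the list stand near each other without sharing a region. Fgf2 (37348477 to 37410106) and Spry1 (37639947 to 37644599) lie on the same stretch of chromosome 3, and neither had a region in either list. The nearest to each was intergenic, 274 and 39.6 kb away in replicate 1 and 871 and 637 kb away in replicate 2. Fgf6 and Fgf23 lie on chromosome 6, and the region nearest to both was a gene body region of 9330179D12Rik, in either list. The 14 genes with no region had a median distance to the nearest region of 255 kb in replicate 1 and 424 kb in replicate 2, against 169 kb in each for all protein-coding genes with none.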
